A study of Mus musculus with 4 samples.

Results

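Proteasome subunits and ubiquitin conjugating enzymes were read in mouse liver as the probes whose platform symbol begins with Psm followed by a letter from a to g and a digit, with Ube2 and a letter, or with Uba and a digit. The rule took 116 of 25697 probes and 76 of 16593 named genes. By role, 43 were genes of the proteasome, its activators and its assembly factors, 30 were ubiquitin or ubiquitin-like activating (E1) and conjugating (E2) enzyme genes, and 3 (Psmc3ip, Psme3ip1 and Ube2dnl2) matched by name only and were kept apart. Uba1, Psmd3 and Psmf1 were not analysed here. Control livers were set against livers lacking ROCK1, a kinase of the actomyosin cytoskeleton, through a knockout (KO) restricted to the liver, and each genotype had 2 single-colour Illumina bead arrays. All mice of both groups had eaten normal chow for 16 weeks. The sources used here do not give strain, sex, Cre line or the deleted stretch of the gene. They also do not say that each array stands for another animal, and the p-values therefore cover only the spread among these arrays, which may be technical.

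Proteins marked with ubiquitin are degraded by the proteasome. An E1 enzyme activates ubiquitin, an E2 enzyme carries it, and a ligase places it on the target. The core particle of the proteasome is a barrel of alpha and beta rings with catalytic beta subunits inside, and a regulatory particle of ATPases and other subunits binds, unfolds and admits the substrate. Interferon induces the immunoproteasome subunits Psmb8, Psmb9 and Psmb10, which replace Psmb5, Psmb6 and Psmb7 in the core and favour the cutting of peptides for antigen presentation. In liver the system turns over metabolic enzymes and misfolded secretory proteins.

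Values below are quantile-normalised log2(intensity + 16), a difference is KO minus control on that scale with background left in, and a probe was called at a Benjamini-Hochberg adjusted p under 0.05 over all 25697 probes (limma). A gene was read by its brightest probe. A fit without 1 array leaves 1 array in a group, and each such fit called fewer probes over the whole array than the main fit. A call lost in such a fit is therefore not particular to that gene. A probe counted as above background over 7.84, a limit placed 3 SD over the mode of all values. Before normalisation the median intensity was 136.9 to 144.9 in control and 203.4 to 206.3 in KO. The mode was 123.7 to 126.9 in control and 179.2 to 179.7 in KO. This shift of the background goes with genotype, and its part in the differences of dim probes was not tested. Rock1 itself read 8.51 and 8.51 in control and 8.06 and 7.91 in KO (difference -0.53, SE 0.12, limma adjusted p = 0.0181), and that call was lost in 3 of 4 fits without 1 array (highest adjusted p = 0.0995). Of 10 hepatocyte markers 7 were above background on at least 2 arrays, Alb was above it on 1 array and Fgb and Tat on 0, so a dim probe is not evidence that a transcript was absent.

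RefSeq promoter windows of assembly GRCm38.p6, from 250 bases before the gene start to 50 after it, were found for 64 of the 76 genes. Windows of 6 genes are printed because the results turn on them: Psme3 and Psmd2 rose and Ube2q1 fell whichever array was left out, Ube2q2 is the paralogue of Ube2q1 that fell with it, and Psmb5 and Psmb8 are a constitutive catalytic subunit and its immunoproteasome form. Capitals mark matches, on either strand, to TGACNNNGC (the core of the element bound by NRF1 and NRF2, factors known to drive proteasome genes), to TTCNNNGAA (the core of STAT binding sites) or to CCAAT (the NF-Y box).
Psme3, chr11:101315963-101316262, plus strand: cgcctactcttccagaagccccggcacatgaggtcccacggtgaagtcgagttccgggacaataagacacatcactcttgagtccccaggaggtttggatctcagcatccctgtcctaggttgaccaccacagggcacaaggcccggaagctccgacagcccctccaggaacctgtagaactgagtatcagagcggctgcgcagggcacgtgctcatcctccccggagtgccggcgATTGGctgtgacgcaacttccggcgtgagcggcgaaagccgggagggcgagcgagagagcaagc
Psmd2, chr16:20651402-20651701, plus strand: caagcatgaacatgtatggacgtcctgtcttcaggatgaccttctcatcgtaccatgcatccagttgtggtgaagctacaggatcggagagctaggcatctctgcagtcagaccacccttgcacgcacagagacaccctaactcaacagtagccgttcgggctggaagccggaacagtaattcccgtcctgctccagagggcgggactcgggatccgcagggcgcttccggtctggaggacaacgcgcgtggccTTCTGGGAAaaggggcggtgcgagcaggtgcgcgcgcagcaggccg
Ube2q1, chr3:89773359-89773658, plus strand: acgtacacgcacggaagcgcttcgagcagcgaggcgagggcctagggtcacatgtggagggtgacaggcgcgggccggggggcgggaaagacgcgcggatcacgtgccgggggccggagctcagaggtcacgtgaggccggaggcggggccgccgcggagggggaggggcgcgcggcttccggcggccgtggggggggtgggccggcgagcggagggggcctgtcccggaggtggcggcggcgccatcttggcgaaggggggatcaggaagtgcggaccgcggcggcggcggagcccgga
Ube2q2, chr9:55149119-55149418, plus strand, the first of its 2 windows: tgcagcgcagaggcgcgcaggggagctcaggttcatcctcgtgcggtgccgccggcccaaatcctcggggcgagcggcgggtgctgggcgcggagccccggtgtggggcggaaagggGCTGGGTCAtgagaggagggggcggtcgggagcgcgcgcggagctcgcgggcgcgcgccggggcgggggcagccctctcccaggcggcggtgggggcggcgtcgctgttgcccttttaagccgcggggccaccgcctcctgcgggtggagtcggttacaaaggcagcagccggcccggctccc
Psmb5, chr14:54617946-54618245, minus strand: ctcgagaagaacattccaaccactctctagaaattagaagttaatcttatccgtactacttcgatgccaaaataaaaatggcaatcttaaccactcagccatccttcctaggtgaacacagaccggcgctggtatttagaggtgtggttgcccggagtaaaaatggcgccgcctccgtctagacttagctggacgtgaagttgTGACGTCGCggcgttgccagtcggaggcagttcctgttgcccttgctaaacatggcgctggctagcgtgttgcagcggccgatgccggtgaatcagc
Psmb8, chr17:34197945-34198244, plus strand: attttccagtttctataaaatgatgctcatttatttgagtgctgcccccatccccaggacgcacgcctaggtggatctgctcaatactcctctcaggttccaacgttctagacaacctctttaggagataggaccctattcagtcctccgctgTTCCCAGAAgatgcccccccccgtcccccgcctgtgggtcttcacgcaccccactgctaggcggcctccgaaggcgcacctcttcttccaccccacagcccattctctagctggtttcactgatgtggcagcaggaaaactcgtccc

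TGACNNNGC was present in 10 of 76 member windows (13.2%) and in 12.4% of all 32851 windows. It was in the windows of Psmb5, where its first base lay 47 bases before the start, and of Ube2q2, 133 bases before it. TTCNNNGAA was in 7.89% of member windows and 8.3% of all windows, among them Psmb8 (97 bases before the start) and Psmd2 (5 bases after it). CCAAT was in 30.3% of member windows and 37.4% of all, and the Psme3 window held it on the opposite strand 14 bases before the start. The Ube2q1 window held 0 of the 3 motifs. A match describes these letters only and shows neither a bound site nor a cause.

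The members as a whole moved little. Of the 76 genes 5 rose and 5 fell in KO liver, 13.2% in all, where 8.84% of all named genes were called (4.2% higher and 4.63% lower). The brightest probe was above background on at least 2 arrays for 62 of the 76 members. With only genes whose mean over the 4 arrays was above background, 10 of 61 members (16.4%) and 17.3% of all such genes were called, so the share of members called was near the background. The median difference of the members was 0.0013, with 38 above 0 and 38 below, and the median over all named genes was 0.0037. The arrays of the groups did not overlap for 26 genes with KO above (34.2%, all genes 27.5%) and for 26 with KO below (34.2%, all genes 26%).

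By probe, 8 of 116 were called higher and 8 lower (13.8%, all probes 8.02%, of which 3.69% higher and 4.32% lower), and the split was 13 higher and 8 lower with normexp correction and 75th percentile scaling. On their brightest probes the proteasome genes gave 5 rises and 1 fall (14% called), and the E1 and E2 genes 0 rises and 4 falls (13.3%). Of all named genes 8.84% were called. With only genes whose mean over the 4 arrays was above background, the shares were 15% and 21.1%, and 17.3% for all such genes. Other probes of these genes do not keep the split of rises and falls, since 2 probes of the E2 gene Ube2f were called higher and 1 probe each of the proteasome genes Psmd11 and Psmd12 lower. The difference between both families was not tested.

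**Figure D1:**
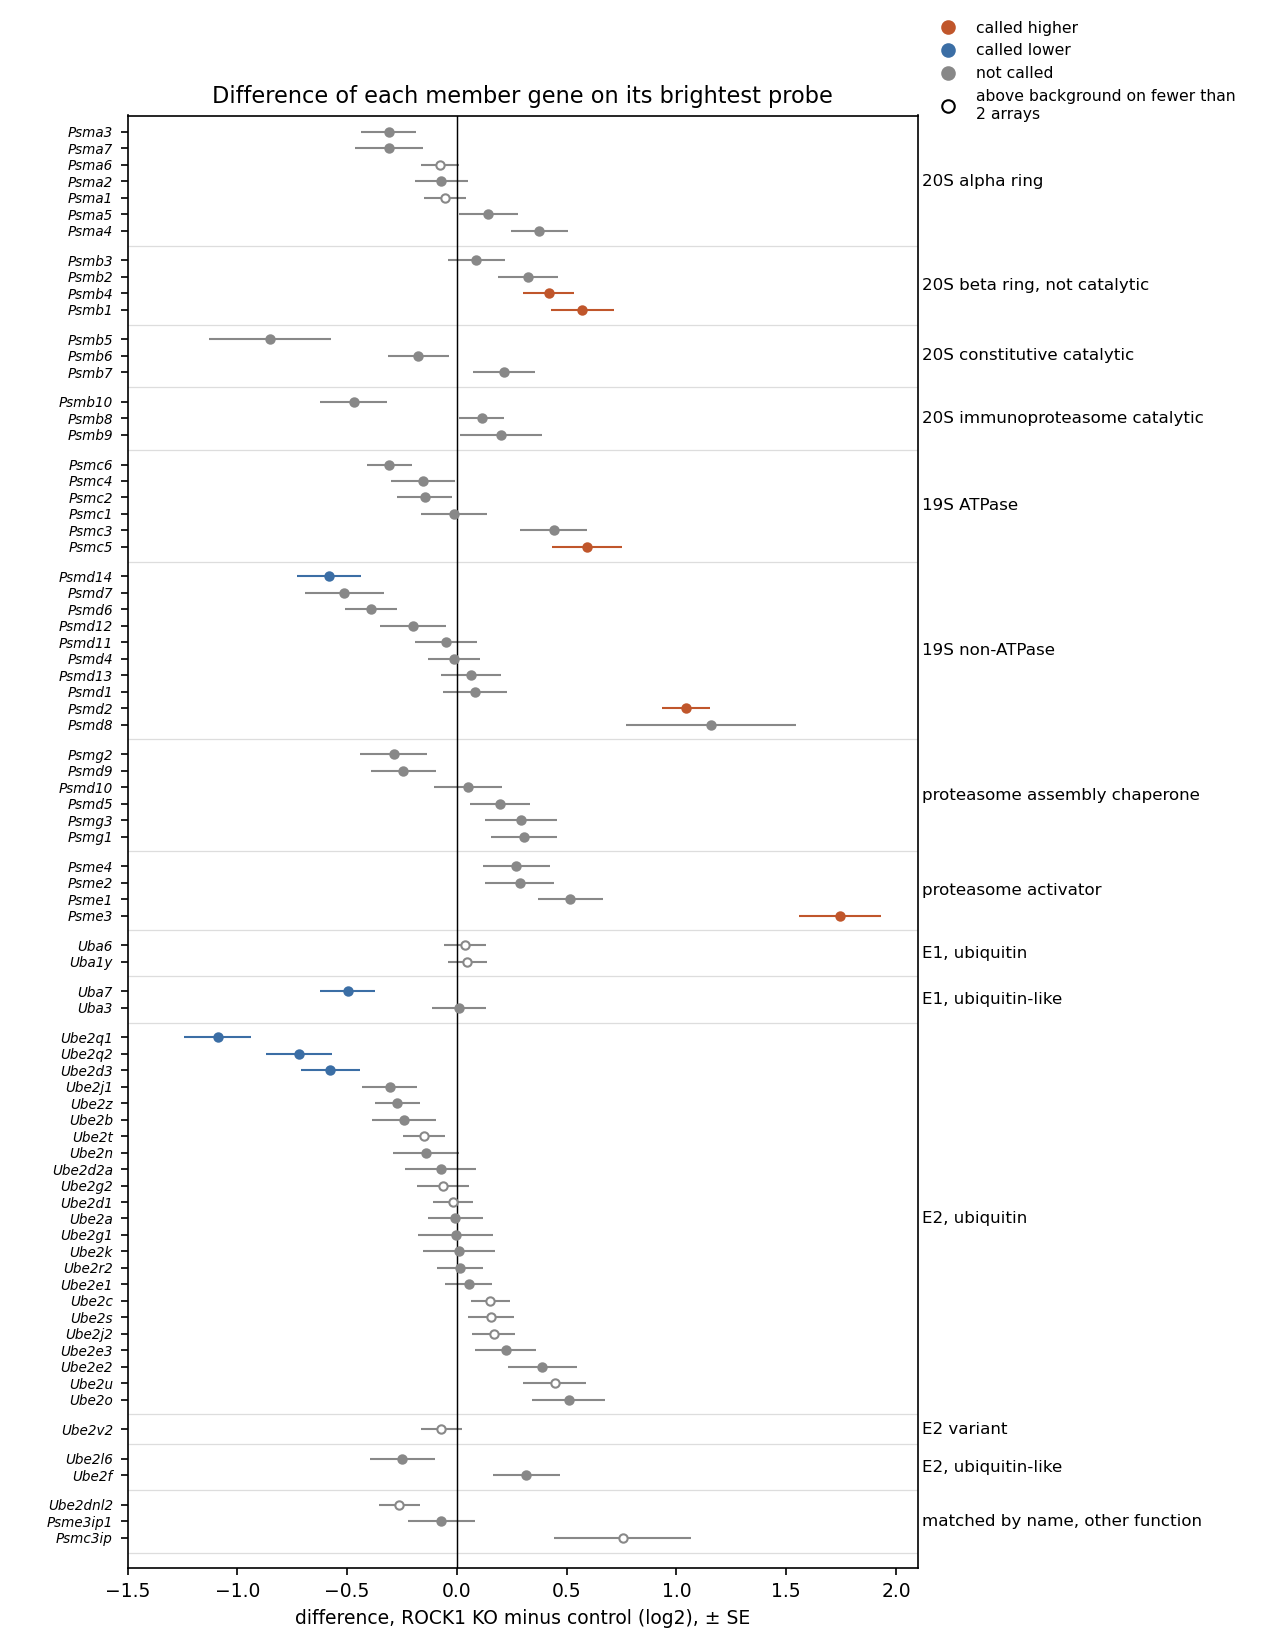
Difference between ROCK1 KO and control liver (log2, KO minus control, ± SE from limma, 2 arrays per group) of each of the 76 member genes on its brightest probe, grouped by role. Orange points are called higher (5 genes), blue points called lower (5) and grey points not called (66), and open points were above background on fewer than 2 arrays. Most genes lie within 0.5 of 0, and Psme3 lies farthest from it at 1.75.

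Psme3 encodes a nuclear proteasome activator (PA28 gamma) that opens the core particle to substrates without ubiquitin. It read 9.79 and 9.52 in control and 11.17 and 11.63 in KO. Both KO arrays were well above both control arrays, and the difference was the largest of the members, 1.75 (SE 0.19, 3.35-fold, limma adjusted p = 0.000402). It ran from 1.52 to 1.96 when 1 array was left out and stayed called in all 4 such fits (highest adjusted p = 0.012).

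The other activator genes were not called. Psme1 and Psme2 encode the interferon-inducible activator PA28 alpha and beta. Psme1 read 11.25 and 11.22 in control and 11.75 and 11.75 in KO, without overlap (difference 0.52, SE 0.15, limma adjusted p = 0.0568), and 0.39 on its other probe. With all 4 arrays Psme1 was called under 6 alternatives (adjusted p 0.0132 to 0.0455), which were both settings with normexp, the filter on dim probes, no intensity trend, robust variance and the replicate block. Psme2 read 9.19 and 9.44 in control and 9.71 and 9.49 in KO, a difference of 0.29 (SE 0.16, limma adjusted p = 0.323). Psme4, the gene of the activator PA200, read 0.27. All 4 activator genes had both KO arrays above both control arrays, as had 27.5% of all genes.

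Of 7 alpha ring genes 0 rose and 0 fell. The alpha ring forms the gate of the core particle. Differences ran from -0.31 for Psma3 to 0.38 for Psma4, which had the smallest p of this role (13.10 and 12.97 in control, 13.50 and 13.31 in KO, limma adjusted p = 0.112). Psma1 and Psma6 were above background on 0 arrays.

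Of the 4 beta ring genes without catalytic activity 2 rose (all named genes 4.2% higher). Psmb1 read 11.95 and 11.87 in control and 12.43 and 12.53 in KO (difference 0.57, SE 0.14, limma adjusted p = 0.0318). Psmb4 read 13.69 and 13.55 in control and 14.05 and 14.03 in KO (difference 0.42, SE 0.11, limma adjusted p = 0.0472). All 4 genes of this role had KO arrays above control arrays, as had 27.5% of all genes, and Psmb2 and Psmb3 were not called (0.32 and 0.09). The call of Psmb1 held without KO replicate 1 (0.0495) and was lost without each other array (highest adjusted p = 0.160). That of Psmb4 was lost without any 1 array, where the difference ran from 0.35 to 0.49. It was also lost with both normexp settings, 75th percentile scaling, robust variance and the mean of all probes (0.0538 to 0.337). Psmb4 has 1 probe, so averaging changed none of its own values.

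The 6 catalytic genes were not called on their brightest probes, whether constitutive or immunoproteasome. Psmb5, which carries the chymotrypsin-like site, read 10.19 and 9.96 in control and 9.78 and 8.67 in KO. KO replicate 2 lay far below the other 3 arrays, and the difference was -0.85 (SE 0.28, 95% interval -1.46 to -0.24, limma adjusted p = 0.0908). It was -0.30 without KO replicate 2 and -1.40, a call (adjusted p = 0.000731), without KO replicate 1. Its immunoproteasome form Psmb8 read 7.83 and 7.77 in control and 7.95 and 7.88 in KO, on both sides of the background limit (difference 0.11, 95% interval -0.11 to 0.34, limma adjusted p = 0.578).

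Psmb6, the constitutive caspase-like subunit, read 12.75 and 12.97 in control and 12.64 and 12.73 in KO (difference -0.18, 95% interval -0.48 to 0.13, limma adjusted p = 0.518). Its immunoproteasome form Psmb9 read 9.56 and 9.03 in control and 9.36 and 9.63 in KO, where the groups overlapped (difference 0.20, 95% interval -0.21 to 0.61, limma adjusted p = 0.588). Without control replicate 2 the Psmb9 difference turned to -0.065.

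Psmb7, the constitutive trypsin-like subunit, read 12.12 and 12.13 in control and 12.38 and 12.30 in KO on its brightest probe (difference 0.21, 95% interval -0.09 to 0.52, limma adjusted p = 0.417). A second Psmb7 probe was called higher (0.67, SE 0.14, limma adjusted p = 0.0148), a call lost in 3 of 4 fits without 1 array (highest adjusted p = 0.0938), and the dimmest read 0.11. Its immunoproteasome form Psmb10 read 10.76 and 10.82 in control and 10.37 and 10.27 in KO. Both KO arrays were below both control arrays (difference -0.47, SE 0.15, 95% interval -0.80 to -0.13, limma adjusted p = 0.0887), and its other probe read -0.31. Psmb10 was called with 75th percentile scaling, with the filter on dim probes and with no intensity trend (adjusted p 0.0234 to 0.0427).

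Each immunoproteasome gene was also set against its constitutive form within each array. The change of that difference between genotypes was 0.38 for Psmb9 minus Psmb6 (exact permutation p = 0.667, two-sided) and -0.68 for Psmb10 minus Psmb7 (exact p = 0.333). For Psmb8 minus Psmb5 it was 0.96 (exact p = 0.333). That p is not interpreted, because Psmb8 was below the background limit on both control arrays. Most of this change was the Psmb5 difference of -0.85. A p of 0.333 is the smallest that 2 arrays against 2 can give, so this design cannot pass a threshold of 0.05. The change for Psmb8 minus Psmb5 fell to 0.46 without KO replicate 2 and reached 1.48 without KO replicate 1. That for Psmb9 minus Psmb6 ran from 0.0020 without control replicate 2 to 0.75 without control replicate 1.

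**Figure D2:**
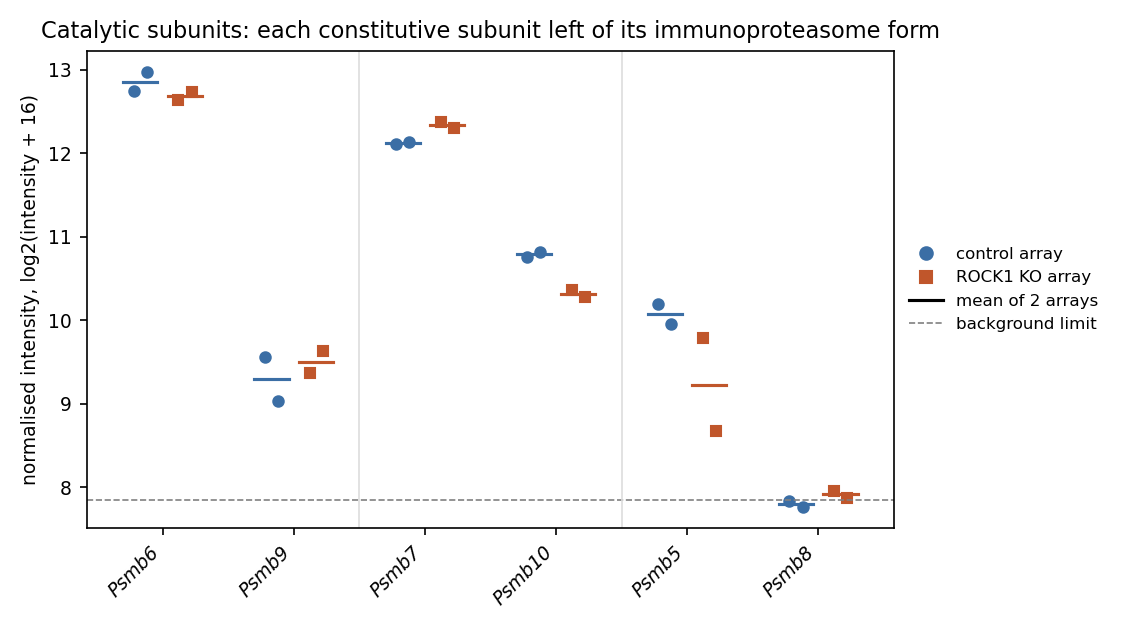
Normalised log2(intensity + 16) of the 6 catalytic subunits on each array, with each constitutive subunit to the left of the immunoproteasome form that replaces it. Circles are the 2 control arrays, squares the 2 ROCK1 KO arrays, short lines the group means and the dashed line the background limit of 7.84. The KO arrays of Psmb5 lie apart at 9.78 and 8.67, those of Psmb10 lie below both control arrays, and Psmb8 lies at the limit.

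Immune cells express the immunoproteasome strongly, and most of their markers were not detected. Of 31 measured immune cell markers 4 were called lower (all named genes 4.63%) and 1 higher (4.2%). The lower ones were Adgre1 and Clec4f of Kupffer cells, Laptm5 of leukocytes and S100a9 of neutrophils, and the higher one was Ms4a1. Each of these calls was lost in at least 1 fit without 1 array. Of the 31 markers 8 were above background on at least 2 arrays, Adgre1, Clec4f and Laptm5 among them. S100a9 and Ms4a1 were above background on 1 array each. Other probes of Adgre1 (-0.30 and, at background, 0.13) and Clec4f (-0.12) were not called. The other Kupffer cell markers above background, Timd4 (-0.33) and Vsig4 (0.0020), were not called either. Nor were the leukocyte markers Coro1a (-0.40) and Cd52 (-0.39), though a dimmer Coro1a probe was called lower (-0.55). Of the 31 markers 20 were above background on 0 arrays, Ptprc and all measured Cd3 genes among them. The median difference of the 31 was -0.09. Their summed normalised intensity, background included, came to 10440 and 8933 on control arrays against 7862 and 8058 on KO arrays. The called markers are part of that sum, so it is not a reading separate from those calls. Of 6 endothelial markers Clec4g alone was called (lower, 13.29 and 13.08 in control and 12.38 and 12.12 in KO). Of all named genes 8.84% were called, and 17.3% of those with a mean above background. In whole liver fewer cells of a type and less RNA per cell cannot be told apart, and the part of these cells in the Psmb10 difference was not tested. Psmb8 and Psmb9 lie beside Tap1 and Tap2 in the class II region of chromosome 17, by RefSeq gene order. Within 5 genes of this pair, H2-Ab1 was called lower (-2.26), as were H2-DMa and H2-DMb1 (-0.67 each), while H2-Aa and H2-Eb1 were called higher (0.56 and 0.46). Tap1 (0.21), Tap2 (-0.48) and Brd2 (0.05) were not called. H2-Oa, H2-DMb2 and H2-Ob were not called either and were above background on 0 arrays. H2-Ab1 was above background on 4 arrays, but H2-DMa, H2-DMb1, H2-Aa and H2-Eb1 on only 2 each, so the size of their differences is uncertain.

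The regulatory particle gave 2 rises and 1 fall among 16 genes (18.8%, all named genes 8.84%). With only genes whose mean was above background, 3 of 15 were called (20%, all such genes 17.3%). Psmd2, whose product docks ubiquitin receptors on the base of that particle, read 7.59 and 7.53 in control, below the background limit, and 8.56 and 8.64 in KO. Both KO arrays were above both control arrays, and with the control level set at the limit the gene was at least 1.69-fold higher (measured difference 1.04, SE 0.11, limma adjusted p = 0.000326). The call held in all 4 fits without 1 array (highest adjusted p = 0.0112). A second Psmd2 probe was above background on 0 arrays.

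Psmc5, an ATPase of the base, read 11.17 and 11.34 in control and 11.72 and 11.97 in KO (difference 0.59, SE 0.16, limma adjusted p = 0.0445). Its second probe, bright on all arrays, overlapped between groups and read 0.14 (limma adjusted p = 0.681). The Psmc5 call held without KO replicate 1 (0.0341), was lost without each other array (highest adjusted p = 0.223), and was also lost when both probes were averaged (0.169). The other 5 ATPase genes ran from -0.31 for Psmc6 (limma adjusted p = 0.0964) to 0.44 for Psmc3. Psmc6 was below the background limit on both KO arrays, and with the KO level set at the limit it was 1.11-fold lower.

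Psmd14 encodes the deubiquitinase that cuts the ubiquitin chain from the substrate before it enters the core. It read 10.09 and 10.12 in control and 9.56 and 9.49 in KO, without overlap (difference -0.58, SE 0.15, limma adjusted p = 0.0322). The difference ran only from -0.62 to -0.55 when 1 array was left out, but the call was lost each time (adjusted p 0.0588 to 0.164). Its partner in the lid, Psmd7, read -0.51 on its brightest probe and -0.21 on the other, and Psmd6 read -0.39 (limma adjusted p = 0.0653), with -0.41 on a probe above background on 1 array. The small lid subunit gene Sem1, which the name rule does not take, fell from 12.75 and 12.72 to 12.04 and 11.94 (difference -0.74, limma adjusted p = 0.00789), a call that did not survive the omission of control replicate 1 (0.0675) or 2 (0.0576).

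Probes of the lid genes Psmd11 and Psmd12 disagreed. The brightest Psmd11 probe read 9.48 and 9.34 in control and 9.33 and 9.39 in KO (difference -0.05). Its second probe read 9.05 and 9.07 in control and 7.82 and 7.76 in KO, below the background limit, at least 2.33-fold lower (measured difference -1.27, SE 0.12, limma adjusted p = 0.000154), in all 4 fits without 1 array (highest adjusted p = 0.00423). The groups thus lay far apart on the dimmer probe and overlapped on the brighter. The brightest Psmd12 probe read -0.20 (limma adjusted p = 0.483), and the second fell from 9.08 and 9.15 to 8.09 and 8.33 (difference -0.90, SE 0.13, limma adjusted p = 0.00209). The sources used here do not say which transcripts each probe reads. With the mean of its probes each gene was called lower (adjusted p = 0.0196 for Psmd11 and 0.0447 for Psmd12).

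Psmd8, another lid gene, was named after its values were seen because 1 array decides it. It read 8.38 and 8.23 in control and 10.33 and 8.59 in KO, with KO replicate 1 far above the rest (difference 1.16, SE 0.39, limma adjusted p = 0.0981). Without KO replicate 1 the difference was 0.29. Psmc3ip, a meiotic recombination gene that only shares the name, was chosen in the same way, and only KO replicate 2 (9.08) was above background. Ube2dnl2, the other of these with a small p, differed by -0.26 (limma adjusted p = 0.123) and was above background on 0 arrays. Of 6 assembly chaperone genes, which help build the core and the base, 0 were called, and they ran from -0.29 for Psmg2 to 0.31 for Psmg1 (limma adjusted p = 0.268).

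**Figure D3:**
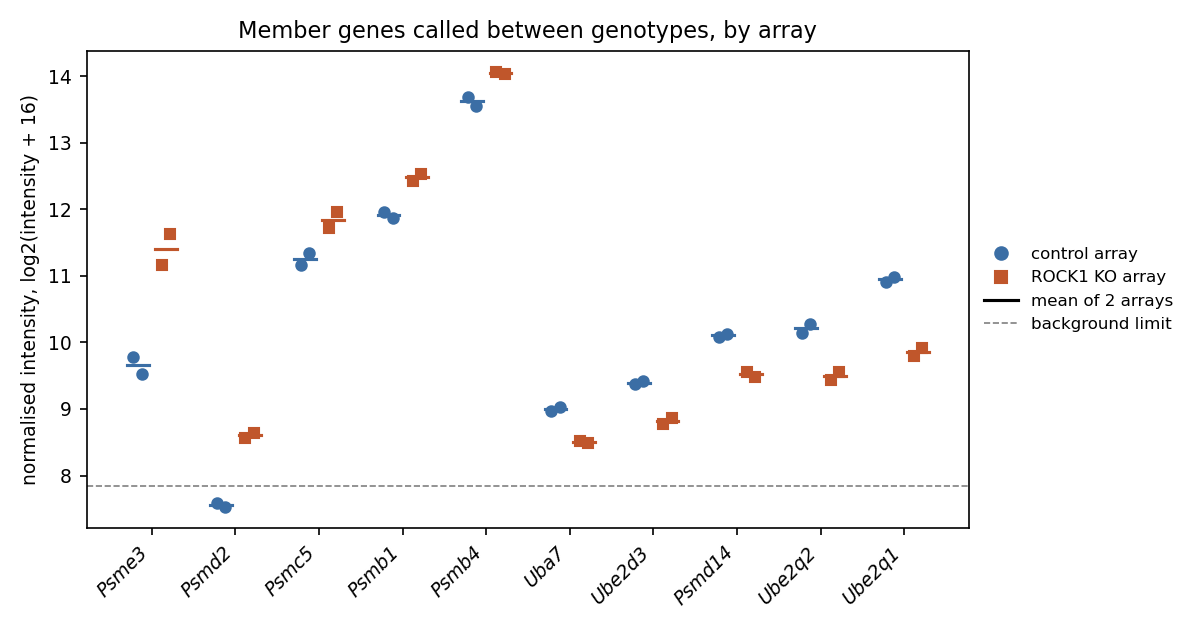
Normalised log2(intensity + 16) on each array of the 10 member genes called between genotypes, ordered from the largest rise to the largest fall. Circles are the 2 control arrays, squares the 2 ROCK1 KO arrays, short lines the group means and the dashed line the background limit of 7.84. The groups do not overlap for any of the 10 genes, and the control arrays of Psmd2 lie below the limit.

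Among 23 E2 genes of ubiquitin 0 rose and 3 fell (13%, all named genes 8.84%). With only genes whose mean was above background, 3 of 15 were called (20%, all such genes 17.3%). Ube2q1, of a family of E2 enzymes with a long N-terminal extension, read 10.91 and 10.98 in control and 9.80 and 9.92 in KO. The KO arrays lay well below the control arrays, and the difference was the largest fall of the members on a brightest probe, -1.09 (SE 0.15, 2.13-fold lower, limma adjusted p = 0.00167). It stayed called in all 4 fits without 1 array (highest adjusted p = 0.0281). A much dimmer Ube2q1 probe, above background on 2 arrays, read 0.05.

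Ube2q2, its paralogue, fell on both probes above background. The brighter read 10.14 and 10.28 in control and 9.43 and 9.55 in KO (difference -0.72, SE 0.15, limma adjusted p = 0.0138). The second read 8.39 and 8.49 in control and 7.93 and 8.07 in KO (difference -0.44, SE 0.12, limma adjusted p = 0.0409). The groups were apart on both probes. The second probe lost its call without any 1 array (highest adjusted p = 0.202). The call of the brighter probe did not survive the omission of a control array (highest adjusted p = 0.114) and, with another probe at background averaged in, at -0.39 (0.0532).

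Ube2d3, an E2 that works with many ligases, read 9.38 and 9.41 in control and 8.78 and 8.86 in KO (difference -0.58, SE 0.13, limma adjusted p = 0.0233). The Ube2d3 call held without KO replicate 2 (0.0471) and was lost without each other array (highest adjusted p = 0.134). Its close paralogues Ube2d1 and Ube2d2a read -0.02 and -0.07, with Ube2d1 at background, and as the paralogues are near in sequence their values are uncertain, since a probe could read more than 1 of them. The other ubiquitin E2 genes ran from -0.31 for Ube2j1, an E2 of ER-associated degradation, to 0.51 for Ube2o (limma adjusted p = 0.0896). Ube2u had the smallest p of those not called (0.44, limma adjusted p = 0.0852) and was above background on 1 array.

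The enzymes of ubiquitin-like proteins were few. Uba7, the E1 of the interferon-induced modifier ISG15, read 8.97 and 9.03 in control and 8.52 and 8.49 in KO, without overlap (difference -0.50, SE 0.13, 1.41-fold lower, limma adjusted p = 0.0336). Its call was lost without any 1 array (adjusted p 0.0807 to 0.169) while the difference ran only from -0.51 to -0.47. Ube2l6, the E2 of ISG15, read 9.13 and 9.15 in control and 9.05 and 8.73 in KO (difference -0.25, limma adjusted p = 0.363).

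Ube2f, an E2 of the modifier NEDD8, had 4 probes above background. Both dimmer ones were called higher (0.65, limma adjusted p = 0.0146, and 0.56, adjusted p = 0.0397), calls lost without 2 and 4 of the 4 arrays in turn, while the brightest read 0.32 (adjusted p = 0.259) and another -0.06. Uba3, the catalytic subunit of the NEDD8 E1, read 8.62 and 8.62 in control and 8.67 and 8.58 in KO (difference 0.01, limma adjusted p = 0.979). The probes of the ubiquitin E1 genes Uba6 and Uba1y and of the E2 variant Ube2v2 were above background on 0 arrays.

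**Figure D4:**
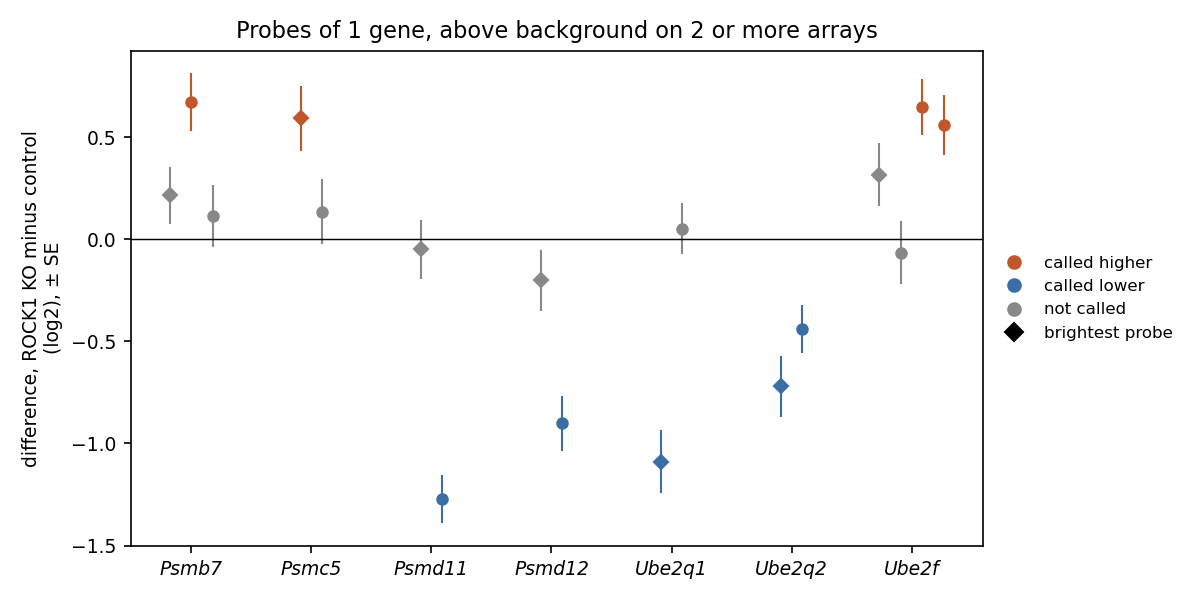
Difference between ROCK1 KO and control liver (log2, KO minus control, ± SE from limma, 2 arrays per group) for each probe above background on at least 2 arrays, in the 7 genes with several such probes of which at least 1 was called. Diamonds are the brightest probe of a gene and circles the others, and colours give the call (orange higher, blue lower, grey not called). Probes of Psmd11 lie at -0.05 and -1.27, while both Ube2q2 probes are called lower.

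Of the 30 member genes with several probes, 19 had another probe above background on at least 2 arrays. In 3 of them (Psmd11, Psmd12 and Ube2q1) it differed from the brightest by 0.5 or more, and in 5 its sign was opposite. Psme3, Psmd14, Psmb1, Psmb4, Ube2d3 and Uba7 were each read by 1 probe, so no second probe bears on these calls.

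Of 99 listed genes around the pathway 74 were measured, and 5 rose and 10 fell (20.3%, all named genes 8.84%). With only genes whose mean over the 4 arrays was above background, 12 of 59 (20.3%) were called, and 17.3% of all such genes. Of 23 ubiquitin ligase genes 3 rose and 3 fell (26.1%), and 5 of the 20 with a mean above background were called (25%). Cul1, the scaffold of the SCF ligases, fell from 10.15 and 10.06 to 8.64 and 9.10 (difference -1.23, limma adjusted p = 0.00155), Huwe1 fell (-1.14) and so did Vhl, which recognises hypoxia-inducible factor (-0.95). Syvn1 and Rnf5, membrane ligases of ER-associated degradation, rose by 0.73 and 0.85. Trim63 was called higher with 0 arrays above background. The calls of Syvn1 and Rnf5 were each lost without 1 control array (0.0554 and 0.0614).

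Of 15 deubiquitinase genes Uchl3 and Usp5 rose (0.60 and 0.49) and Usp25 was at least 1.21-fold lower. These calls made up 20% of the role, and 8.84% of all named genes were called. With only genes whose mean was above background, 2 of 12 were called (16.7%, all such genes 17.3%). The calls of Uchl3 and Usp5 were lost without 3 and 4 of the 4 arrays in turn (highest adjusted p of 0.284 and 0.219). Of 11 shuttle and extraction factor genes 0 were called, and Ubqln4 came nearest (0.52, limma adjusted p = 0.0634), as did the E2 gene Cdc34 (0.54, adjusted p = 0.0557, with a dimmer probe called higher at 0.45) and the ligase gene Ube3a (-0.44, adjusted p = 0.0552) among the remaining genes.

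Among 7 genes that regulate proteasome genes Stat3 alone was called (14.3%, all named genes 8.84%). With only genes whose mean was above background, 1 of 4 was called (25%, all such genes 17.3%). Stat3 fell (-0.88, limma adjusted p = 0.00803), with -0.61 and -0.07 on its other bright probes. That call was lost without control replicate 2 and with the mean of its probes (limma adjusted p = 0.0613). Nfe2l1, which encodes NRF1, read 11.68 and 11.54 in control and 11.31 and 11.32 in KO (difference -0.29, limma adjusted p = 0.292). Nfe2l2, which encodes NRF2, differed by 0.03.

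Of 12 interferon-regulated partners of the immunoproteasome 0 rose and 4 fell (33.3%, all named genes 4.63% lower). With only genes whose mean was above background 3 of 8 were called, where 17.3% of all such genes were called in either direction. B2m, the light chain of class I molecules, fell from 15.57 and 15.37 to 14.93 and 14.95 (difference -0.53, limma adjusted p = 0.00596), and its other bright probe read -0.32. Tapbp (-0.62), of the peptide loading complex, and Usp18 (-0.64), which removes ISG15, fell, while the other bright Tapbp probe read 0.16 and that of Usp18 -0.33. Nlrc5 was called lower with 0 arrays above background. The calls of B2m, Tapbp and Usp18 disappeared when the probes of each gene were averaged (0.157 to 0.255) and without 1, 3 and 2 of the 4 arrays in turn (highest adjusted p of 0.0552, 0.199 and 0.169). Irf1, an inducer of the immunoproteasome, read 10.68 and 10.03 in control and 10.91 and 10.65 in KO (difference 0.42, limma adjusted p = 0.273), and 1 of its 4 dimmer probes was called higher (0.42, adjusted p = 0.0432).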

How the data were processed

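The authors deposited 1 linear intensity per probe and array, without detection p-values per the file headers and with no background subtracted. The authors' deposited log2 values share nearly the same distribution on the 4 arrays. The sources used here do not name the scanner software or the step that set that distribution. The intensities were quantile normalised, 16 was added and log2 taken. Limma 3.58.1 in R 4.3.3 (lmFit, eBayes with an intensity trend, no block) tested all 25697 probes with two-sided p-values and Benjamini-Hochberg adjustment, and the code was tested on simulated data. Symbols came from the platform annotation.

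The members, lists and limits were chosen with earlier results of these data known. Named were the catalytic genes, Psme1, Psme2, every called member, the not-called member with the smallest p in each role, called genes of the related list and the 3 nearest to it, and members with several bright probes where these differed. Other genes given with values were chosen after those values were seen. With 2 arrays per group the number of arrays limits the precision. Alternatives covered offset, background correction, scaling, the authors' values, dropping dim probes, variance models, a block for replicate number, omission of single arrays, a looser threshold and averaging the probes of a gene. Figures were drawn with matplotlib 3.10.9.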

Additional observations from a re-analysis of the deposited data

How the results depend on the processing

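Of the 8 member probes called higher and 8 called lower, fits without 1 array called 2 to 7 higher and 3 to 5 lower, so these counts rest on all 4 arrays. With normexp correction and 75th percentile scaling 13 were called higher, and at an adjusted p under 0.10 13 were called lower. With the replicate number as a block 12 were called higher and 11 lower. The labels state no pairing, and deviations of same-numbered arrays from their group means correlated at -0.057, so the block says nothing firm. Psmb10 minus Psmb7, on the brightest probe of each gene, changed by -0.73 with normexp and 75th percentile scaling and by -0.68 in the main fit. With 2 arrays per group the spread between arrays is too uncertain to set beside it. Signs were followed in 51 of the named member and related genes. They turned for Psmb9 (-0.065 without control replicate 2, up to 0.46 without control replicate 1), Psmd11 (0.020 without control replicate 1, down to -0.12 without control replicate 2), Uba3 (-0.035 without KO replicate 1, up to 0.055 without KO replicate 2) and Ube2v2 (0.034 with 75th percentile scaling), none of them called. Members outside that list turned too when 1 array was left out, among them Ube2d1 (-0.070 to 0.036) and Ube2d2a (-0.23 to 0.088). With either 75th percentile setting or the block, Psmb5 and Psmd8 were called although their KO arrays lie far apart, because the prior variance then dominates (median prior df 56.3 with the block, 9.33 without, and infinite with that scaling). Of the 10 called genes 10 kept their call with an offset of 50, with the authors' values, with the filter on dim probes, with the block and with no intensity trend. For probes near the background limit, such as Psmb8 and Ube2u, the background left in makes differences smaller than those of the transcripts, and a change could be missed. The cause of the other shifts was not tested.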
